A study of Mus musculus with 12 samples.

Results

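Genes of small nucleolar RNAs (snoRNAs) and of their noncoding host transcripts were followed through 2 networks of chromatin contacts, 1 from young and 1 from old mouse liver cells. The members are all names in the deposited gene column of either network that begin with Snora, Snord or Snhg, and there were 97 of them among 16197 names, namely 31 Snora, 51 Snord and 15 Snhg names. The contacts were measured by H3K27ac Hi-ChIP, in which regions that touch are ligated and those carrying acetylated histone H3 lysine 27, found at active promoters and enhancers, are pulled down with an antibody. The cells were hepatocytes of male C57BL/6 mice aged 5 months (young) or 25 months (old), with 6 libraries per age from 2 biological replicates in 3 batches of technical repeats. The labels give no treatment and no genetic change in either group. The younger animals were bought from Charles River and the older ones came from the stock of the US National Institute on Aging, so age and source cannot be told apart. Each age is represented by 1 deposited network. The values below therefore cannot be set against a spread between animals, and they come without p-values.

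A node of the network is a 5 kb stretch of the genome, and each node belongs to exactly 1 clique, the authors' word for a group of nodes. Links between single nodes were not analysed here. The deposited table gives the number of nodes of each clique and the genes attached to it. Clique size below is that number of nodes, taken for the clique that lists a gene. No member was listed in more than 1 clique of an age, so each has 1 value in young and 1 in old. Sizes are compared as log2((old + 1)/(young + 1)), for names listed at both ages. The young network had 56928 nodes in 5401 cliques and the old network 40304 nodes in 5973 cliques. The mean clique held 10.5 young or 6.75 old nodes. How many contacts lie behind each network is unknown. Across all names listed at both ages the median log2 value was -0.63, and member values are read against that shift.

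SnoRNAs guide chemical changes to ribosomal and spliceosomal RNA. Box C/D snoRNAs (Snord) direct methylation of the ribose, box H/ACA snoRNAs (Snora) direct conversion of uridine to pseudouridine, and a few of each are needed to cut the ribosomal precursor RNA. In mammals most are released from introns of a host transcript after splicing. The hosts are often genes of ribosomal proteins or translation factors, or noncoding RNAs (the Snhg genes and Gas5) whose spliced exons encode no known protein. Transcription from the host promoter is therefore the first step in making most snoRNAs. Hepatocytes secrete much protein and need many ribosomes. SnoRNA genes of 1 host lie close together and often share a 5 kb node, so members are not independent of one another.

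The promoters of 6 Snhg genes are shown because these are the control regions through which the snoRNAs inside those genes are transcribed. Snhg9, Snhg1, Snhg11 and Snhg17 were the Snhg genes in the largest cliques, and Snhg12 and Snhg3 were added after their values were seen, because they shared 1 young clique and not an old one. Each sequence runs 5′ to 3′ from 250 bases before the annotated start to 50 after it, from RefSeq on GRCm38.p6. Capitals mark matches on either strand to the E-box (CACGTG), the GC box (GGGCGG), the TATA box (TATAAA) or the CCAAT box (CCAAT).
Snhg9 (chr17:24719916-24720215, minus strand): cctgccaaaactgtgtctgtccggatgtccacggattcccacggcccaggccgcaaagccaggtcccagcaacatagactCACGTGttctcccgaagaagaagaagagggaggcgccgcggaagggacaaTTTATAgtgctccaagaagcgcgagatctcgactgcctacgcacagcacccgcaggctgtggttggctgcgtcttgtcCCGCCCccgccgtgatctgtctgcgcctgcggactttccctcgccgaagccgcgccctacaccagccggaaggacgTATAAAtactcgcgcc
Snhg1 (chr19:8723237-8723536, plus strand): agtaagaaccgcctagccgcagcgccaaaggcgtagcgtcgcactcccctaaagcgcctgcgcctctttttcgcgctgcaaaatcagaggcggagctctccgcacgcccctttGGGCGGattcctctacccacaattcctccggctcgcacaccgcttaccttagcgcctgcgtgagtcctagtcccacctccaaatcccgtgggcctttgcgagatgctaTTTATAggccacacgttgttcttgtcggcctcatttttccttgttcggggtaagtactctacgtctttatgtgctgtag
Snhg11 (chr2:158375463-158375762, plus strand): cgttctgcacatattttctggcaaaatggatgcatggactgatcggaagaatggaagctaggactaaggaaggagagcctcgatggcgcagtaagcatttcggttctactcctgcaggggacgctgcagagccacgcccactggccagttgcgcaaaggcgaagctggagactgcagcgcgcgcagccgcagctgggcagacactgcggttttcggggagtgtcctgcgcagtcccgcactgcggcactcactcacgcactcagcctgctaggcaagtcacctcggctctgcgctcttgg
Snhg17 (chr2:158361473-158361772, minus strand): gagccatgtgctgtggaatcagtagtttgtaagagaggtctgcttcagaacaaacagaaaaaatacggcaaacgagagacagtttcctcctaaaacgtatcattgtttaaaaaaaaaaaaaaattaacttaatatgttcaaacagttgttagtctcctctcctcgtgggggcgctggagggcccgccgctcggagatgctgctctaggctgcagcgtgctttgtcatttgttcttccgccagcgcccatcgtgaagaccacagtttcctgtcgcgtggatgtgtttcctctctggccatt
Snhg12 (chr4:132308428-132308727, plus strand): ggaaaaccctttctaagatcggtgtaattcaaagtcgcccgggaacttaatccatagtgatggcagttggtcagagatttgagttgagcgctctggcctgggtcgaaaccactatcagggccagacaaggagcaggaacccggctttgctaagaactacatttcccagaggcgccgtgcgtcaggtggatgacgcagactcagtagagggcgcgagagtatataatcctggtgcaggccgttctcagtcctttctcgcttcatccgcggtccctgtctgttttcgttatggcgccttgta
Snhg3 (chr4:132353637-132353936, minus strand): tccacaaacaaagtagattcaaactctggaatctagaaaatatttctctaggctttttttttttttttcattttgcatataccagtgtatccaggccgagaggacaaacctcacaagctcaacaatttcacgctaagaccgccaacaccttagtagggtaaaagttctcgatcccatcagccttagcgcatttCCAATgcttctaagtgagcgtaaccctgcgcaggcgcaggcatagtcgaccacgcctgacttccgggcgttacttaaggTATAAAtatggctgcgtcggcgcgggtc
Among the promoters of 14 Snhg genes, Snhg4 left out, the GC box letters occurred in 7, against 35.7% of all 32851 promoters. The TATA letters occurred in 5 (13.6% of all promoters), the CCAAT letters in 5 (37.4%) and the E-box letters in 2 (7.15%). A terminal oligopyrimidine (TOP) start, which marks many translation genes and was taken as a C at the annotated start followed by 4 pyrimidines, was found in 1, Snhg8, against 2.51% of all promoters. The TOP rule held only at the annotated base, so a pyrimidine tract that begins just before it, as in Snhg12, was not counted. A match describes letters and not a bound site. A young node lay on 12 of these 14 promoters, all but those of Snhg14 and Snhg8. An old node lay on 10, all but those of Snhg7os, Snhg14, Snhg16 and Snhg5.

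The family was well represented in both networks and, counted by name, lost listings in old at about the rate of all names. Of the 97 names, 92 were listed in young and 68 in old. Listed at both ages were 63 (64.9%, 95% Wilson interval 55.0 to 73.7), against 60.7% of all names. In young only there were 29 (29.9%, 21.7 to 39.6), against 29% of all names, and in old only 5 (5.15%, 2.22 to 11.5), against 10.3%. The first 2 shares were near the background, and the interval of the third reached it. Each combination of young and old clique was also counted once, for members and all names. Of 63 member combinations, 40 were then at both ages (63.5%, 51.1 to 74.3), against 48.1%. In old only were 4 (6.35%, 2.497 to 15.2), against 17.5%. Neither interval held the share of all names. In young only were 19 (30.2%, 20.2 to 42.4), and that interval held the 34.4% of all names. These differences were not tested. The intervals cover counting error only and treat names as independent. RefSeq annotation of GRCm38.p6 matched 91 of the 97 names, and the 6 without a match were Snora9, Snord50a, Snord50b, Snord60, Snord78 and Snord80.

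Of 151 genes that this annotation names Snora, Snord or Snhg, 91 were listed in at least 1 network (60.3%, 52.3 to 67.7), compared with 44.2% of protein-coding genes. The share was 76.9% of 39 Snora genes, 48.9% of 94 Snord genes and 83.3% of 18 Snhg genes. The 17 annotated Snord116 genes accounted for part of the lower Snord share. This imprinted cluster, whose loss is part of Prader-Willi syndrome in humans, is known mainly from neurons. None of the 17 was listed, which allows a share of up to 18.4% by the Wilson interval, and none had a node of either age within 2500 bp. Their host Snhg14 was listed in young alone, with 7 nodes.

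Most members listed at both ages sat in smaller cliques in old, as did most other genes. Of 63 such members 52 had the smaller clique in old (82.5%, against 82.5% of all names listed at both ages), 9 the larger (14.3%, against 12.5%) and 2 an equal one. The median was 49 young and 17 old nodes, compared with 31 and 17 for all names. The median log2 value was -0.84, with a range from -4.41 to 1.61. At least 2-fold smaller on that scale were 29 of 63 (46.0%, 34.3 to 58.2), against 34.9% of all names, and at least 2-fold larger was 1, Snora15, against 3.52%. Counting every combination of young and old clique once brought the share at least 2-fold smaller to 18 of 40 (45.0%), with 45.0% for all names counted likewise. Counted in that way, members and all names had the same share, and their median log2 values were -0.80 and -0.79.

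With sizes divided by the mean of each age, 39 members were smaller in old and 24 larger, with a median log2 value of -0.20. All names then split into 4790 smaller and 5046 larger, with a median of 0.02. Relative to the median of all names, 40 members were lower and 23 higher. These splits count every name and are not given with each pair of cliques counted once.

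**Figure D1:**
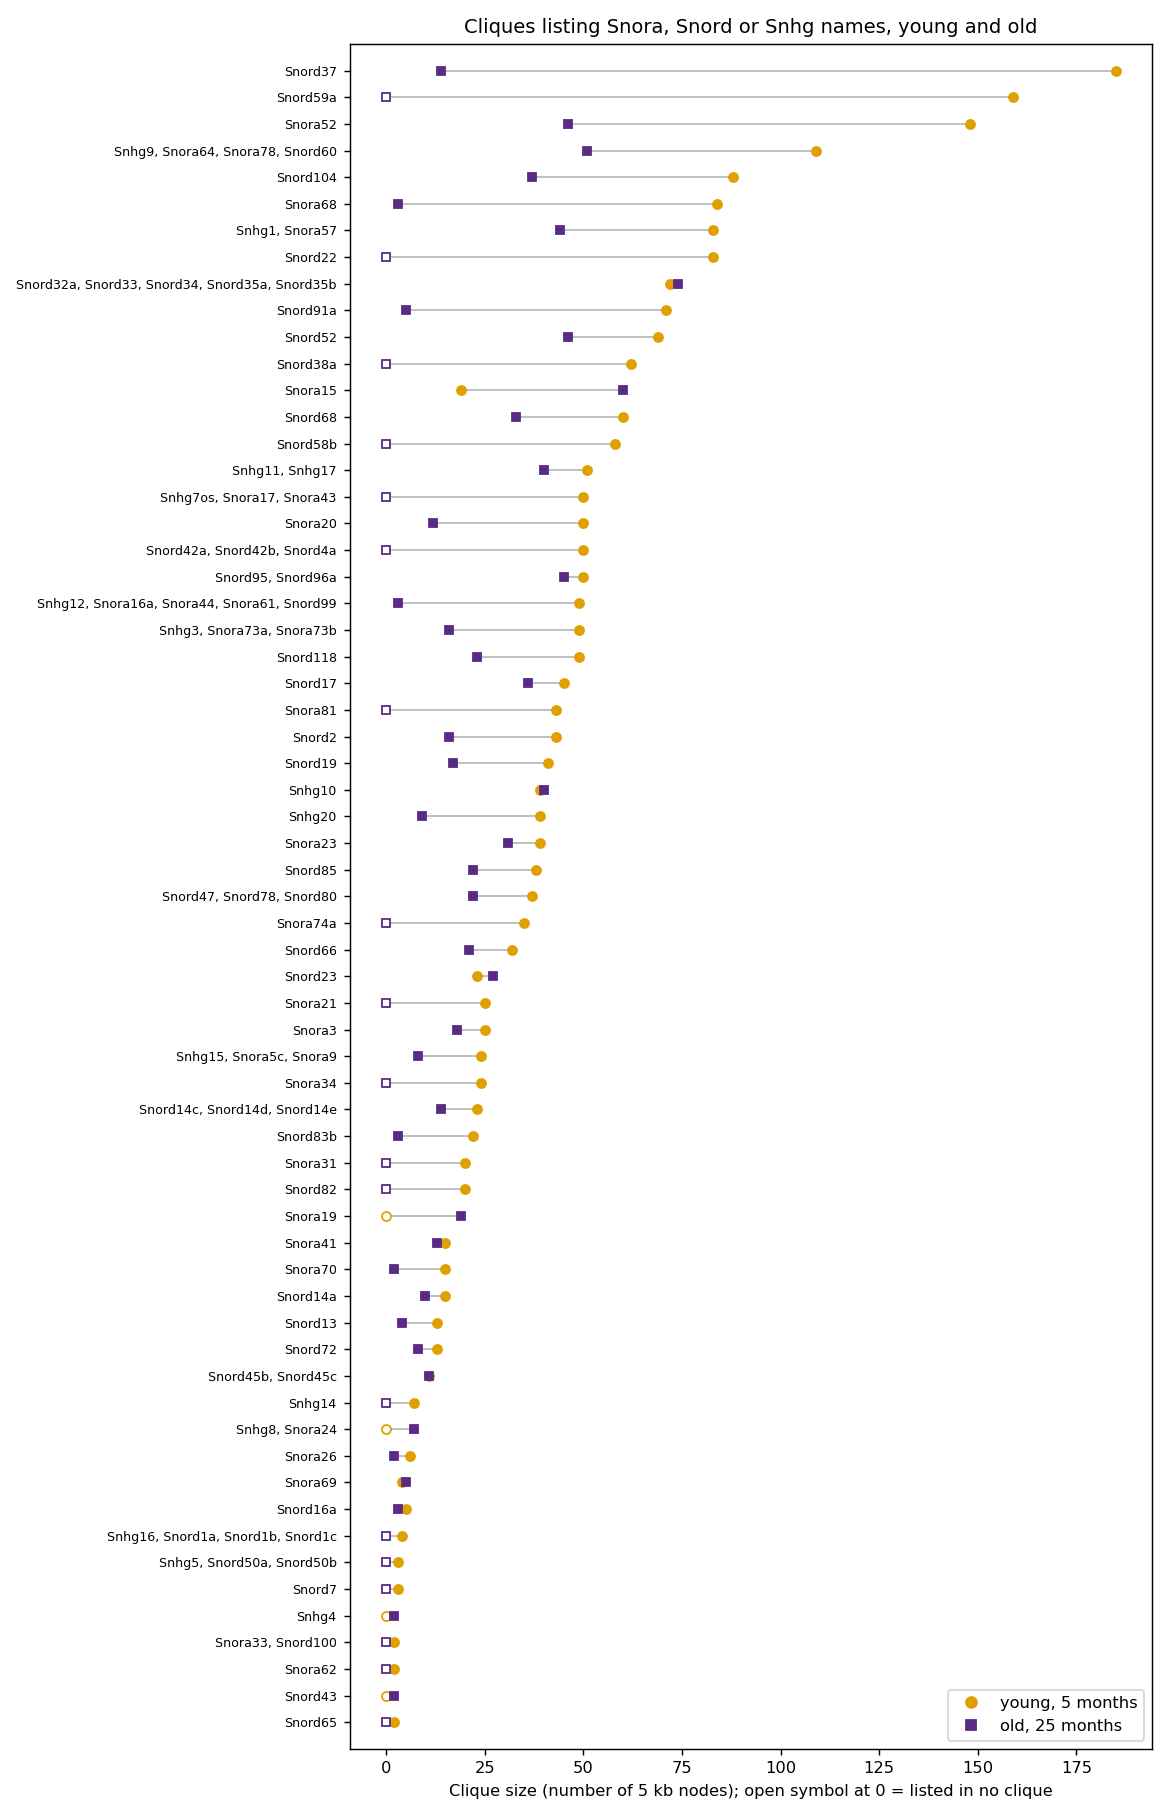
Clique size (number of 5 kb nodes) of every pair of young and old cliques that list a Snora, Snord or Snhg name. Circles are young and squares old, open symbols at 0 mark names missing from the gene column at that age, while each line joins the values of the names at its left. Snord37 has the largest young value (185 nodes) and the Rpl13a group the largest old value (74 nodes).

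**Figure D2:**
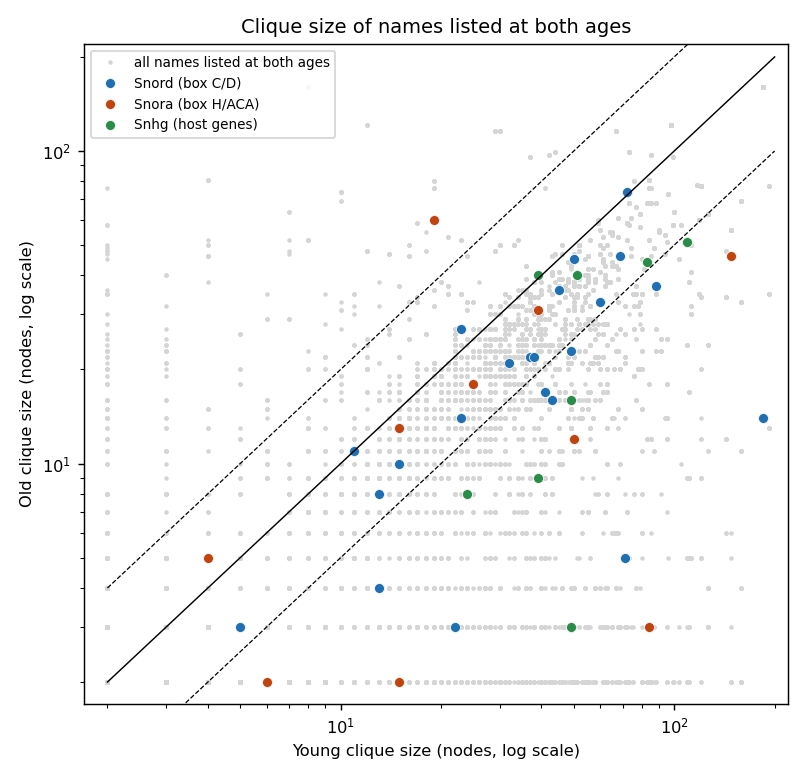
Young against old clique size on log axes for names listed at both ages. Grey points are all 9836 such names, coloured points the 63 members (names of 1 clique pair overlap), the solid line marks equal size and the dashed lines a 2-fold difference. Member points lie mostly below the solid line, with Snora15 the only one above the upper dashed line.

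Among the host transcripts, old clique sizes ran from 51 nodes to 2, and 4 names were listed in young only. Young size did not sort them, since Snhg7os had 50 young nodes and no old clique. Snhg9, which overlaps the ribosomal protein gene Rps2 on chromosome 17 (24719531 to 24719965), had 109 nodes in its young clique and 51 in its old one. Snhg1, the host of Snord22 on chromosome 19 (8723487 to 8726326), was in cliques of 83 and 44 nodes. The neighbours Snhg11 and Snhg17 on chromosome 2 shared cliques of 51 and 40 nodes, together with Lbp, which encodes the lipopolysaccharide-binding protein made by liver. Snhg10 on chromosome 12 (105030617 to 105032279) was the only Snhg gene with a larger old clique, at 39 and 40 nodes, and it was listed with the microRNA-processing gene Dicer1 at both ages.

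The other Snhg genes listed at both ages had lower old values. Snhg12 and Snhg3 shared 49 nodes in young and had old cliques of 3 and 16. Snhg20 was in cliques of 39 and 9 nodes, and Snhg15 in cliques of 24 and 8. These 4 genes and Snhg9 were the 5 of 9 that were at least 2-fold smaller in old (55.6%, 26.7 to 81.1), against 34.9% of all names. With each pair of cliques counted once the count was 5 of 8 (62.5%, 30.6 to 86.3), against 45.0%. Both intervals held the share of all names. Listed in young only were Snhg7os with 50 nodes, Snhg14 with 7, Snhg16 with 4 and Snhg5 with 3. Listed in old only were Snhg8 with 7 nodes and Snhg4 with 2. The young-only names were 26.7% of Snhg names and the old-only names 13.3%, against 29% and 10.3% of all names. Old nodes lay on Snhg14, the longest of these genes, in a clique of 8, and came within 2500 bp of Snhg16, in a clique of 2, and of Snhg5, in a clique of 8. In young, a clique of 35 had a node on Snhg4. No old node came nearer than 42121 bp to Snhg7os.

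Box H/ACA names had a lower median log2 value than box C/D names. Of 20 Snora names listed at both ages, 14 were at least 2-fold smaller in old (70.0%, 48.1 to 85.5), against 34.9% of all names, with a median log2 value of -1.47. Of 34 Snord names 10 were (29.4%, 16.8 to 46.2), with a median of -0.68. With each pair of cliques counted once the counts were 9 of 15 (60.0%, 35.7 to 80.2) and 10 of 24 (41.7%, 24.5 to 61.2), against 45.0% of all names. The medians were then -1.22 and -0.74, against -0.79 for all names. Counted so, the Snord share was near the background, and the interval of the Snora share held it. The difference between the classes was not tested, since names of 1 host share a value and each age has 1 network.

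The H/ACA names covered nearly the whole range of change. Snora68 was in cliques of 84 and 3 nodes, the lowest log2 value among members. Snora52, held by Rplp2, a gene of the ribosomal stalk, was in cliques of 148 and 46 nodes. Snora64 in Rps2, and Snora78, which lies inside both Rps2 and Snhg9, shared the cliques of Snhg9 at 109 and 51 nodes. Snora73a and Snora73b, which act in cleavage of the ribosomal precursor and lie in Snhg3, were in cliques of 49 and 16 nodes. Snora16a, Snora44 and Snora61 in Snhg12 were in cliques of 49 and 3.

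Other H/ACA names had intermediate values, and Snora15 had the larger clique in old. Snora20 in the chaperonin gene Tcp1 was in cliques of 50 and 12 nodes, and Snora70 in Rpl10 on the X chromosome in cliques of 15 and 2. Snora23 in Ipo7, a nuclear import gene, was in cliques of 39 and 31, and Snora41 in Eef1b2 in cliques of 15 and 13. Snora15, held by the chaperonin gene Cct6a on chromosome 5 (129794561 to 129794676), had 19 nodes in its young clique and 60 in its old one. Snora69 in Rpl39, at 4 and 5 nodes, was the only other Snora name with a larger old clique.

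Of the Snora names 9 had a young clique only (29.0%, 16.1 to 46.6), against 29% of all names. Another 2 had an old clique only (6.45%, 1.79 to 20.7), against 10.3%. Both intervals held the share of all names. Snora17 and Snora43, both inside Snhg7, shared a young clique of 50 nodes, while Snora81, held by Eif4a2, had 43 nodes and Snora74a had 35. Snora21 in Rpl23 was in a young clique of 25 nodes, Snora34 in one of 24 and Snora31 in Tpt1 in one of 20. Snora33 in Rps12 and Snora62 in Rpsa were in young cliques of 2. Listed in old only were Snora19, with 19 nodes, and Snora24, which lies in Snhg8 and shared its 7 nodes.

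Among the box C/D names, the cluster in Rpl13a stood at about the same size at both ages. Snord32a, Snord33, Snord34 and Snord35a in Rpl13a, and also Snord35b, shared a young clique of 72 nodes and an old one of 74, on chromosome 7. Snord32a, Snord33 and Snord35a are known for a role in the response of cultured cells to excess saturated fatty acids. Ruvbl2 and Pih1d1, which encode proteins of the machinery that assembles snoRNPs, were listed in the same 2 cliques. Of the 74 old nodes, 48 lay in the young clique of 72 and 7 in a young clique of 10. Relative to the median of all names these 5 Snord names were higher in old.

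Other C/D names in large young cliques had smaller old ones, by widely different amounts. Snord37, in an intron of the elongation factor gene Eef2 on chromosome 10 (81178961 to 81179013), was in the largest young clique of any member, 185 nodes, and in an old clique of 14. Snord91a, within Tsr1, which encodes a ribosome maturation factor, was in cliques of 71 and 5 nodes. Snord104 was in cliques of 88 and 37 nodes, Snord52 in cliques of 69 and 46, and Snord68 in Rpl13 in cliques of 60 and 33. Snord118, the U8 snoRNA needed for maturation of large-subunit ribosomal RNA and not placed inside another gene here, was in cliques of 49 and 23. The log2 values of these 6 names ran from -3.63 to -0.57, and that of Snord52, the highest, was above the median of all names.

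Further C/D groups had values on both sides of equal size. Snord95 and Snord96a in Rack1, a ribosome-associated scaffold gene, were in cliques of 50 and 45 nodes. Snord47, Snord78 and Snord80 were listed with Gas5, a noncoding host that accumulates in growth-arrested cells, in cliques of 37 and 22. Snord14c, Snord14d and Snord14e in the chaperone gene Hspa8 were in cliques of 23 and 14, and Snord14a in Rps13 in cliques of 15 and 10. Snord45b and Snord45c in Rabggtb were in cliques of 11 nodes at both ages. Snord23, in Nop53, a ribosome biogenesis gene, was in cliques of 23 and 27.

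A young clique only was found for 16 Snord names (31.4%, 20.3 to 45.0), near the 29% of all names. Their sizes ran from 159 nodes to 2. Snord59a, held by the ATP synthase gene Atp5b, had 159 nodes, Snord22 in Snhg1 in one of 83, Snord38a in one of 62 and Snord58b in Rpl17 in one of 58. Snord42a, Snord42b and Snord4a, all in Rpl23a, shared a young clique of 50 nodes, and Snord82 in the nucleolin gene Ncl in one of 20. The other 8, among them Snord1a, Snord1b and Snord1c in Snhg16, were in young cliques of 2 to 4 nodes. Snord43 in Rpl3, in an old clique of 2 nodes, was the only Snord name listed in old only (1.96%, 0.35 to 10.3), against 10.3% of all names.

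A snoRNA and the gene that holds it were nearly always in the same clique when both were listed. This is largely set by position, since the snoRNA lies inside its host and each node belongs to 1 clique. Of 59 listed snoRNAs with a known host start, 38 lay in the same 5 kb bin as that start. By position, 74 snoRNA names lay whole inside 59 other genes, giving 79 pairs. Both were in the same clique for 60 pairs in young and 48 in old. They were in different cliques for 2 pairs in young, Snora5c with Tbrg4 and Snora69 with Rpl39, and for 1 in old, Snord83b with Rpl3. In old, 4 hosts were listed without their snoRNA. These were Tpt1 without Snora31, Eif4a2 without Snora81, Snhg1 without Snord22 and Snhg4 without Snora74a. Snord2, in the same host as Snora81, was in cliques of 43 and 16 nodes. Strand was not used to assign hosts, so a few of these genes may lie on the opposite strand.

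SnoRNAs were grouped by the kind of gene that holds them, and differences between these groups were not tested. SnoRNAs with 1 noncoding host were smaller in old in 9 of 9 listed at both ages, against 82.5% of all names, with a median log2 value of -1.56. Another 8 of the 18 were listed in young only (44.4%, 24.6 to 66.3), against 29% of all names. Counted once per clique pair these were 5 of 11 (45.5%, 21.3 to 72.0), against 34.4% of all names counted likewise. Both intervals held the share of all names. Of those 9, 4 lie in Snhg12 and share 1 value. With each clique pair counted once the median was -1.23, against -0.79 for all names. The count was then 5 of 5, with 77.9% of all names counted likewise. A count of 5 is too small to be set apart from that share. For ribosomal protein hosts 10 of 16 were smaller and 6 larger, with a median of -0.56. Counted once per clique pair these were 10 and 2, with a median of -0.74. For other protein-coding hosts the median was -0.32 over 15 names and for translation factors -0.98 over 4.

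**Figure D3:**
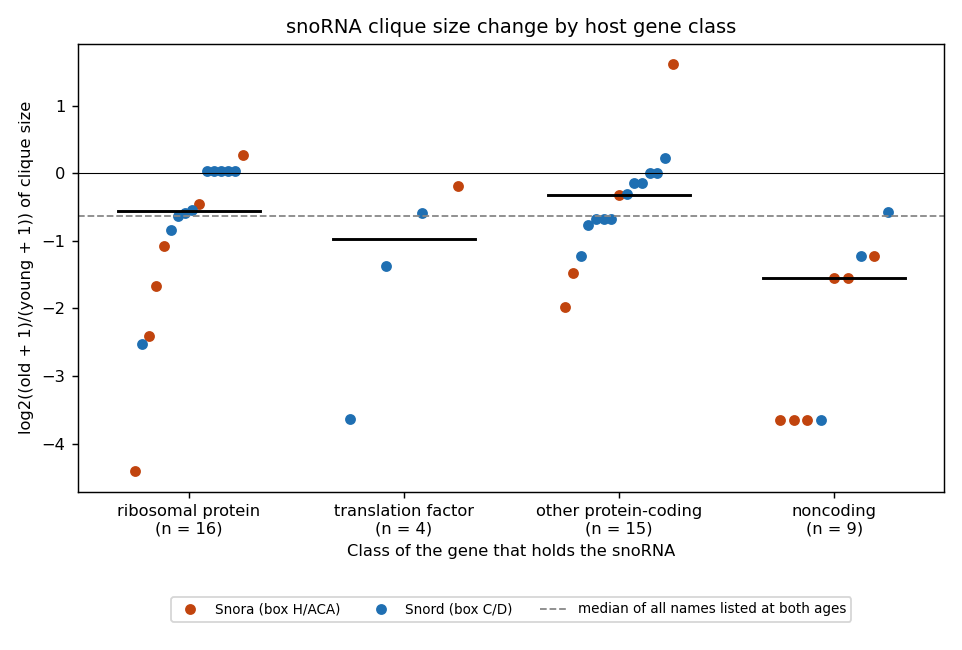
The log2 change in clique size from young to old of each snoRNA name listed at both ages and held by exactly 1 gene, by class of that gene. Points are names, black bars are medians, and the dashed line is the median of all names listed at both ages (-0.63). All 9 names with noncoding hosts are below 0, while 6 names with ribosomal protein hosts are above it.

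Members followed the nodes of their young cliques about as all names did. Of 56 young cliques that list members, 41 had nodes in 2 or more old cliques and 4 had none in the old network. The same counts are not given for other cliques, so these are not read as particular to members. Cliques that list members had a median of 36 young nodes, against 7 for other cliques that list a gene. A clique that lists many names is likelier to list a member, so this gap was partly set in advance. By name, the median young clique held 40 nodes for members and 27 for all names. Taking for each young clique the old clique that holds most of its shared nodes, 48 of the 92 members listed in young were listed there (52.2%, 42.1 to 62.1), against 54.2% of all names. Another old clique listed 15 (16.3%, 10.1 to 25.2), against 13.5% of all names, and no old clique listed 29. Both shares were near the background. Among these 15 names were 8 of the 29 Snora names and 4 of the 50 Snord names, and 8 of the 15 came from the young cliques of Snhg12 and Snhg15.

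**Figure D4:**
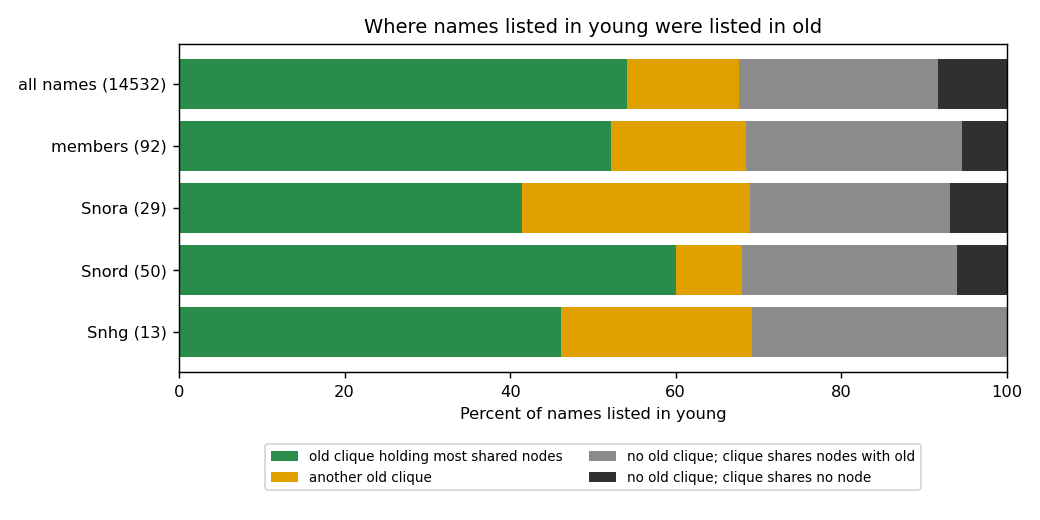
Percent of names listed in young by where they were listed in old, for all names, for members and for each name class, with the number of names in brackets. Green marks the old clique that holds most of the shared nodes of the young clique and orange any other old clique; grey and black mark names with no old clique. The orange part is 27.6% for Snora names (8 of 29) and smaller for Snord names (4 of 50).

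On chromosome 4 the names of 1 young clique were listed in different old cliques. This clique, of 49 nodes (132185001 to 132625000) listed 8 members, Snhg12 with Snora16a, Snora44, Snora61 and Snord99 and Snhg3 with Snora73a and Snora73b, together with Rcc1, a gene of mitotic chromatin whose locus Snhg3 adjoins. Of its nodes 27 were present in old, in 6 cliques. The largest share, 15 nodes, lay in an old clique of 16 that listed Snhg3 and its 2 snoRNAs with Sesn2, a stress-response gene, and 3 nodes made up the old clique that listed Snhg12 and its 4 snoRNAs. Rcc1 was in no old clique.

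Snord37 and Snora68 lay near an end of their young cliques, 5.99 kb from it in a span of 1370 kb and 4.14 kb from it in a span of 825 kb. Of the 185 young nodes around Snord37, 144 were present in old and 120 of these were in a clique of 160 nodes, which did not list Eef2 or Snord37. Another 12 were in the old clique of 14 with both, together with Creb3l3, a liver transcription factor gene. Of the 84 young nodes around Snora68, 70 were present in old and 62 were in a clique of 81 nodes, while Snora68 was in one of 3. For Snora15 the order was reversed. Its old clique of 60 nodes held 40 nodes of a young clique of 59 that listed no member and 13 nodes of the young clique of 19 around Snora15.

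**Figure D5:**
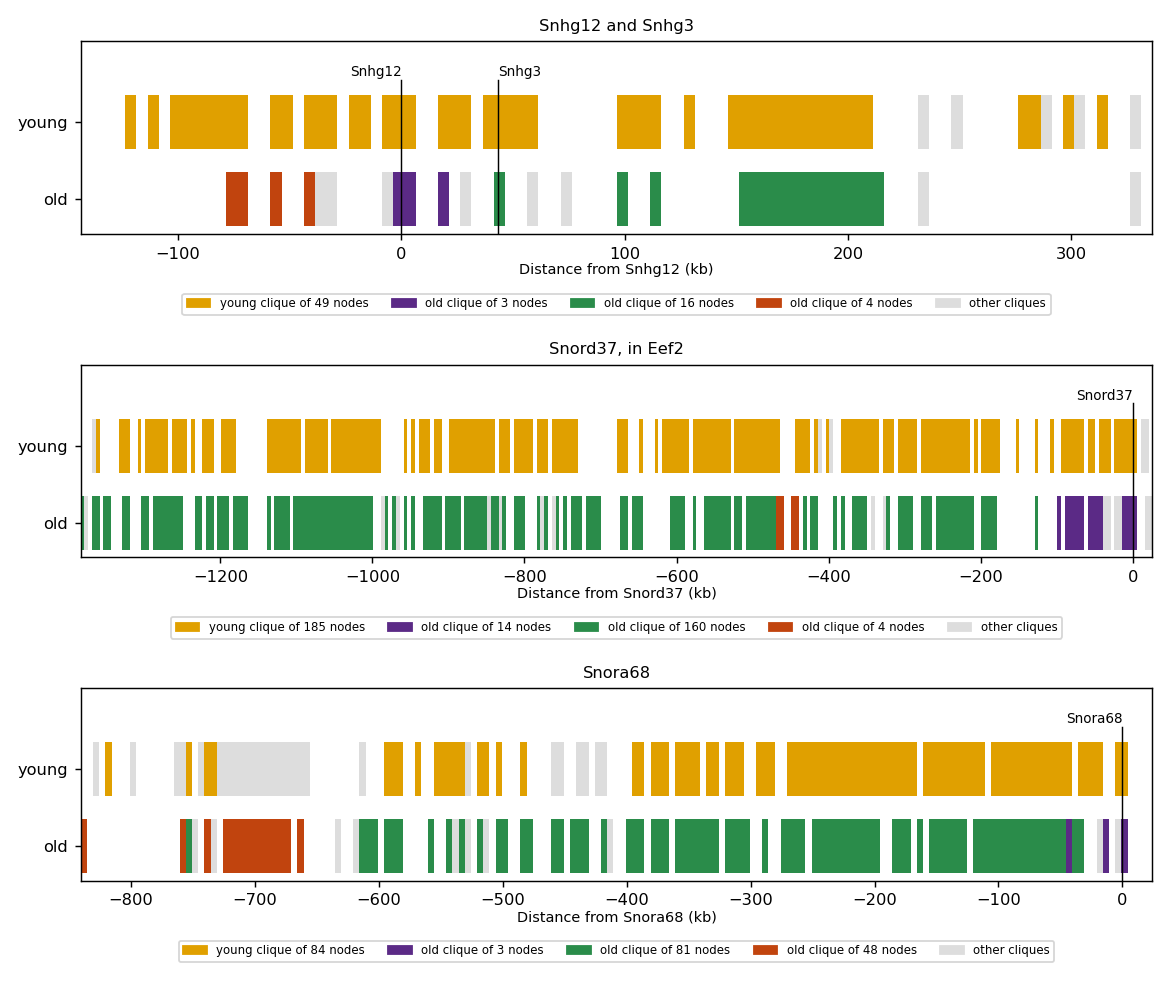
Nodes around Snhg12 and Snhg3, Snord37 and Snora68, by distance from the named gene in kb. Each bar is a 5 kb node; orange bars in the upper rows are the young clique that lists the gene, purple bars in the lower rows the old clique that lists it (green for Snhg3), other colours further old cliques, and grey bars all remaining cliques. The old nodes at Snord37 and Snora68 belong to cliques of 14 and 3 nodes beside cliques of 160 and 81.

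The 7 matched members at the very end of a young clique of 20 or more nodes were not with its larger part in old. This was noticed after the values were seen, on few names, and was not tested. Among 64 matched members in young cliques of 20 or more nodes, 7 reached an outermost node (10.9%), against 13.9% of all matched names in such cliques. None of these 7 was listed in the old clique with most shared nodes, 2 were in another one, Snora68 and Snora5c, and 5 were in none, Snhg7os, Snora31, Snora34, Snord38a and Snord58b. Over all matched names at an end, 44.8% were in the main old clique and 36.9% in none. Away from an end, 61.4% of 57 members were in the main old clique, near the 63.0% of all matched names.

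The loss of a listing mostly went with the loss of a node on the gene. Names are attached to nodes, so listing and node are not independent, and this link was largely fixed in advance. Of the 86 matched members listed in young, 83 had a young node on the gene and the other 3 had one within 446 bp. Among the 27 matched members with a young listing alone, 1 had an old node on the gene, 8 had one beside it within 2500 bp and 18 had none within that distance. The 8 included Snord59a, with an old node 785 bp away in a clique of 11, Snord22, at 866 bp in a clique of 44, and Snora81, at 770 bp in a clique of 16. Over all annotated Snora, Snord and Snhg genes, listed or not, 99 had a young node within 2500 bp. Of these 73 also had an old one (73.7%), compared with 76.1% of all annotated genes, and 26 had none, compared with 23.9% of all annotated genes.

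Listed snoRNAs lay nearer to the start of their host than snoRNAs listed in no clique. The start of a host was known for 59 listed snoRNA names, with a median distance of 2025 bp, and 38 of them (64.4%) lay in the same 5 kb bin as that start. For 36 annotated snoRNA genes listed in neither network, Snord116 left out, the median was 5888.5 bp, and 10 (27.8%) lay in the same bin. The host was listed in at least 1 network for 52 of the 59 and for 10 of the 36. The cliques that list members had a median of 36 young nodes, against 7 for the other young cliques that list a gene, a gap partly set in advance as stated above. They kept 68.0% of their nodes in old, against 58.2% for the others, and these shares were not matched on size. The difference was not tested, since nodes of 1 clique are not independent and each age has 1 network.

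Genes that build and use snoRNAs showed mixed values. Of 22 genes of snoRNP proteins and assembly factors 8 were listed at both ages. Their median log2 value was -0.21, and none was past 2-fold. In old 4 were smaller (50.0%, 21.5 to 78.5), 3 larger (37.5%, 13.7 to 69.4) and 1 equal. Over all names 82.5% were smaller, 12.5% larger and 34.9% at least 2-fold smaller. Ruvbl2 and Pih1d1, both among the larger, shared cliques of 72 and 74 nodes, so these genes are not independent. The difference from all names was not tested. Nhp2 and Nop10, subunits of the H/ACA particle, were in cliques of 87 and 49 nodes and of 16 and 9. Coil, the Cajal body scaffold gene, was in cliques of 12 and 20, and Nolc1 in cliques of 28 and 20. Fbl, which encodes the C/D methyltransferase fibrillarin, was in cliques of 5 nodes at both ages. Dkc1, the pseudouridine synthase gene of the H/ACA particle, was listed only in old, with 2 nodes.

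Of 51 genes known to hold snoRNAs, 25 were listed at both ages, 14 in young only (33.3% of the 42 listed, against 29% of all names) and 3 in old only. In old 17 of the 25 were smaller, 7 larger and 1 equal, with a median of -0.54, close to the -0.63 of all names. At least 2-fold smaller were 8 (32.0%, against 34.9% of all names), and 2 were at least 2-fold larger. The furthest from 0 were Naca at 159 and 2 nodes, Eef2 at 185 and 14, Rpl10 at 15 and 2 and Tcp1 at 50 and 12. Of 25 ribosome biogenesis genes 11 were listed at both ages, 10 smaller and 1 equal in old, with a median of -1.08, against 82.5% smaller among all names. At least 2-fold smaller were 6 (54.5%, 28.0 to 78.7), against 34.9% of all names, a share that the interval held. Taf1c, of the RNA polymerase I initiation factor, was in cliques of 21 and 3 nodes, Nop2, a ribosomal RNA methyltransferase gene, in cliques of 119 and 35, Ubtf, an activator of ribosomal RNA transcription, in cliques of 111 and 38, and Dimt1 in cliques of 12 and 4.

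The labelled cell type was checked against its markers. Of 6 hepatocyte markers 5 were listed, Alb, Apoa1, Ttr and Cps1 at both ages and Hnf4a in young only. No marker of macrophages, stellate cells, cholangiocytes or lymphocytes was listed, out of 14. Of 4 endothelial markers 2 were, Lyve1 in cliques of 25 and 3 nodes and Pecam1 in a young clique of 4, and their part in the results was not tested.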

How the data were processed

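H3K27ac Hi-ChIP was made from hepatocytes pelleted at low speed after collagenase perfusion of the liver, per the labels' protocols, in 12 libraries. The authors deposited 4 tables, for each age the nodes with their positions on mm10 and the cliques with node numbers and gene names, per the file headers; each age was taken to pool its libraries. The submitters' processing notes name Bowtie2, HiC-Pro and mm10. The caller, clique method, promoter window and contact depth were not given in the sources used here. Clique sizes are numbers of nodes, so no count test was run.

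Names were split on semicolons, and a repeat within a clique was counted once. The size of a name was its largest clique, with a pseudocount of 1 and a call at 2-fold. Genes were matched to RefSeq by symbol or unique synonym, coordinates being 1-based. Members, lists and tests were chosen with earlier results of these data known. Genes named were all Snhg names, snoRNA names in cliques of at least 50 nodes, the 10 largest gains and losses, names in old only, their hosts, and up to 4 genes of each list or clique; others were chosen after their values were seen. Some genes that this rule names are not reported here. Tools were Python 3.11.15, pandas 2.3.3 and statsmodels 0.14.6 (Wilson intervals), and the calls were tested on simulated data.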

Additional observations from a re-analysis of the deposited data

How the results depend on the processing

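The direction of the median held in the settings tried. Dividing sizes by the mean of the age moved the median log2 value to -0.20, the number of members larger in old to 24 and the number at least 2-fold smaller to 13. Centring on the median of all names, which was chosen after seeing the data, gave -0.22, 23 and 13. By percentile rank within each age 26 were larger in old. Counting each pair of cliques once left 40 names at both ages, 19 in young only, 34 smaller and 5 larger in old, and 18 at least 2-fold smaller. With cliques of at least 3 nodes 3 were in old only, and with at least 5 nodes 19 were at least 2-fold smaller. A fold of 4 left 11 smaller and 0 larger. Assigning cliques by position within 2500 bp gave 18 in young only and 2 at least 2-fold larger. The smallest clique, the sum over cliques, other pseudocounts, a fold of 1.5, a host overlap of 1 bp and leaving out the X chromosome, the last also chosen after seeing the data, moved no count by more than 1.5 times. No paired analysis was possible because each age has 1 pooled network with no replicate column, and for the same reason no replicate could be left out. The cause of these shifts was not tested. The contact depth of each network is unknown, and sizes are not corrected for it.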
